A study of Mus musculus with 12 samples.

Results

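Smooth muscle contractile genes were measured in total RNA from the jejunum of male mice after common bile duct ligation (CBDL), a model of cholestasis in which bile no longer reaches the intestine, or after a sham operation. The 33 genes were taken from a named list of contractile, cytoskeletal and excitation genes of visceral smooth muscle, and each was read from the probe set that names it alone, or from the brighter one for Jph2, which has 2. They are 33 of the 19938 genes with such a probe set on the array. Of these genes, 29 had a mean signal over the 12 arrays above the median probe set's mean of 5.42 on the log2 scale. The exceptions were Casq2, Myocd, Hspb7 and Kcnmb1. The comparison between groups asks whether the muscle layer contributed equally to the samples.

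The 12 arrays came from 8-week-old inbred mice, A/J or C57BL/6J (B6), with 3 arrays for each strain and operation, named here B6 sham, B6 CBDL, A/J sham and A/J CBDL. In the CBDL mice the duct was dissected and clipped shut close to the duodenum, and in the sham mice the abdomen was opened but the duct was left alone. Mice of both kinds received isoflurane, subcutaneous saline and buprenorphine, and the jejunum was taken 7 days after the operation. The sources used here do not say whether each array is 1 mouse, nor how much of the gut wall was taken, so p-values measure the spread between arrays, which may be technical in part.

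The values are log2 signals, on which a difference of 1 is a doubling. The array medians lay between 5.36 and 5.51. Epithelial markers were bright in every sample, with a mean over 18 genes of 10.94 to 11.12, and the smooth muscle marker Acta2 lay at the 94.4th percentile of all probe sets. The array A/J sham 1 stood apart, with a mean correlation of 0.970 with the other 11 arrays where the next lowest array had 0.979, and it is set out separately wherever it decides a value.

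Smooth muscle of the gut wall forms the outer longitudinal and circular layers and the thin muscularis mucosae, and it mixes and propels the contents of the intestine. Contraction starts when calcium activates myosin light chain kinase, which allows the myosin motor to pull on actin filaments that are anchored in dense bodies and at the cell membrane. Many of the genes for this apparatus are switched on together by serum response factor, which binds a sequence called the CArG box, with its coactivator myocardin.

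The promoters that show this shared element were read from RefSeq, build GRCm38.p6, in windows from 250 bases before to 50 bases after each start of transcription. An entry was found for 29 of the 33 genes, and not for Myh11, Actg2, Tagln and Myocd. The CArG box begins with CC, ends with GG and has 6 bases of A or T between them. It reads as the same class on both strands, so a search of one strand covers both. An exact box lay in the windows of 2 of the 29 genes (6.9%) and of 488 of the 27025 genes with a window (1.81%). Those of Myl9, at chr2:156775268-156775347 on the plus strand, and Ldb3, at chr14:34588682-34588751 on the minus strand, are shown 5′ to 3′ with the box in capitals.
Myl9: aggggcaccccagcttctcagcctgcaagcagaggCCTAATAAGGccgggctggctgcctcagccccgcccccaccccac
Ldb3: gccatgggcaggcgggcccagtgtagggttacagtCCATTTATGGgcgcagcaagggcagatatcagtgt
The box of Myl9 starts 161 bases before the start of transcription and that of Ldb3 35 bases before it. A box with exactly 1 of its 6 inner bases changed to G or C was found for 7 of the 29 genes (24.1%), namely Acta2, Hspb6, Jph2, Myl9, Pcp4, Pdlim3 and Synm, and for 2620 of all genes with a window (9.69%). Acta2 had 2 of them, starting 84 and 34 bases before its start of transcription, and its stretch at chr19:34255378-34255477 on the minus strand is shown with both in capitals because Acta2 is the most widely used smooth muscle marker.
Acta2: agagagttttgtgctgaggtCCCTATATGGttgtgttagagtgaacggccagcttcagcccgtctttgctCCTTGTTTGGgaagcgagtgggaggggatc
A match is a description of these letters and not of a bound site. Ldb3, with an exact box, varied least of the 33 genes over the 12 arrays, by 0.37, and Myl9, also with an exact box, varied by 2.78.

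B6 CBDL had the lowest signal of the smooth muscle genes. The mean of the 33 genes was 7.29, 7.76 and 7.47 in the B6 sham arrays and 6.46, 6.65 and 6.93 in the B6 CBDL arrays. It was 7.52, 7.20 and 7.12 in the A/J CBDL arrays and 6.46, 7.63 and 7.28 in the A/J sham arrays. All 3 B6 CBDL arrays were below every B6 sham and every A/J CBDL array, while the A/J sham arrays spanned most of the range of the other groups. B6 CBDL had the lowest group mean for 30 of the 33 genes, and B6 sham the highest for 24. Fewer smooth muscle cells in the tissue taken and less of these transcripts per cell cannot be told apart in whole tissue RNA.

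**Figure D1:**
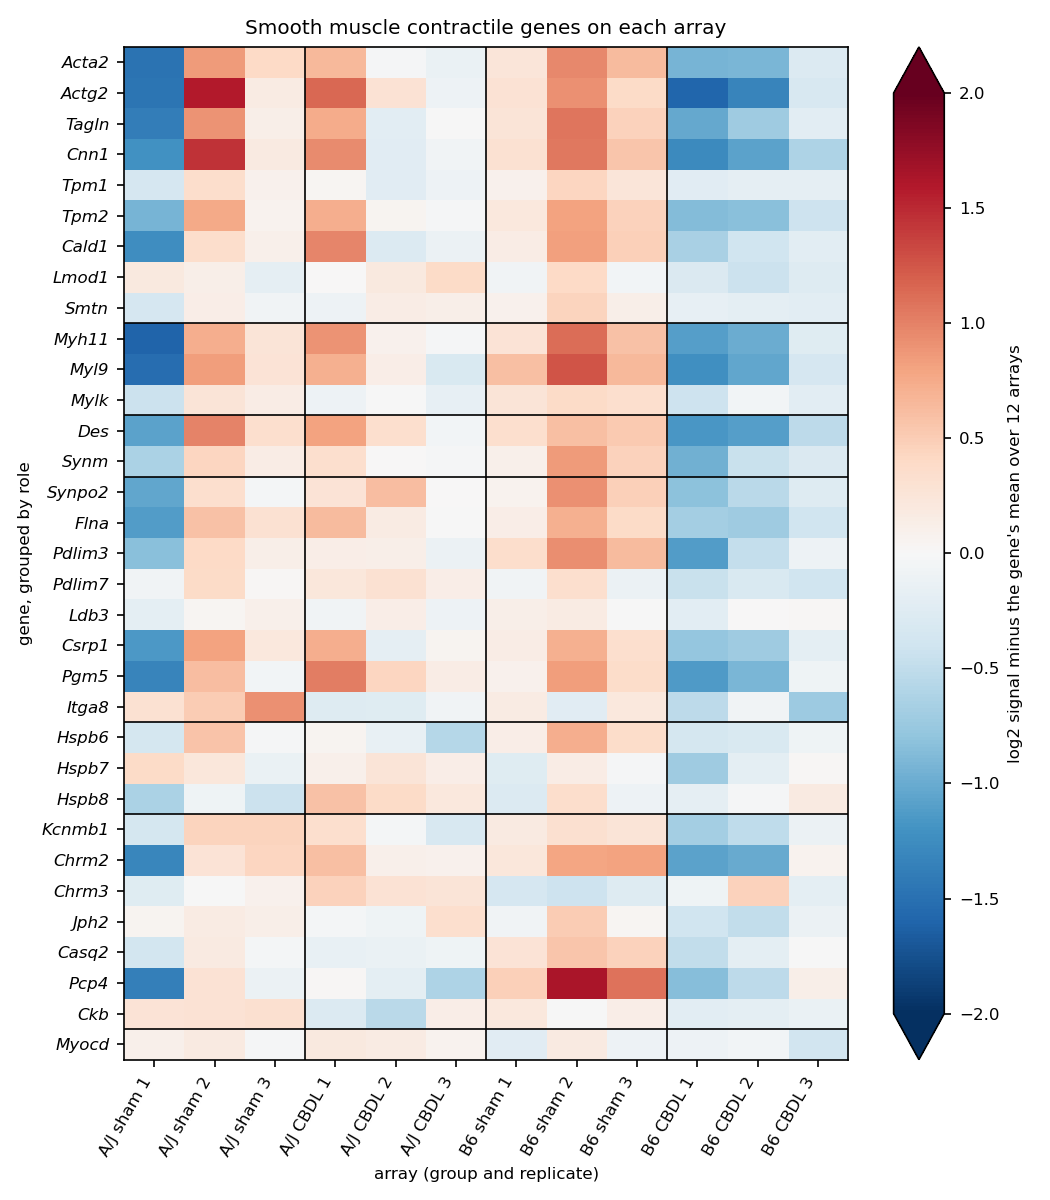
Log2 signal of each of the 33 smooth muscle genes (rows, grouped by role) on each of the 12 arrays (columns, by group and replicate), as the difference from that gene's mean over the 12 arrays, with red higher and blue lower. The columns of the 3 B6 CBDL arrays and of A/J sham 1 are blue for most genes, and Lmod1, Itga8, Hspb7, Hspb8, Chrm3, Ckb and Myocd depart from that pattern.

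The array A/J sham 1 was as low as B6 CBDL. It was below both other A/J sham arrays for 30 of the 33 genes, within or below the range of the B6 CBDL arrays for 26, and the lowest of all 12 arrays for 16. Acta2, for example, was 8.28 on that array and 10.61 and 10.16 on the other A/J sham arrays. With that array set aside, all 3 B6 CBDL arrays lay below the 8 other arrays for 18 of the 33 genes, beside 1.78% of all probe sets. The array was set aside after its values for these genes were seen, so this count is a description only. With the array kept, the B6 CBDL arrays cannot lie below all others for the 26 genes above, by the way those genes were counted.

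In B6 mice, the operation was compared with limma, with p-values adjusted by Benjamini-Hochberg over all 35556 probe sets. At an adjusted p under 0.05, 0 of the 33 genes were called, beside 0.0534% of all probe sets. At an unadjusted p under 0.05, 26 genes were lower in B6 CBDL than in B6 sham and 1 was higher, beside 3.77% of all probe sets lower and 3.88% higher. The groups did not overlap, with B6 CBDL lower, for 27 genes, beside 7.62% of all probe sets. The estimate was below 0 for 31 of the 33 genes, beside 50.7% of all probe sets, and the median log2 difference was -0.90 beside a median close to 0 over all probe sets. The number of genes at the unadjusted threshold in either direction was 27 with all arrays, beside 7.64% of all probe sets, 13 without B6 sham 2 and 17 without B6 CBDL 1. The median without any 1 array stayed between -1.06 and -0.73.

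**Figure D2:**
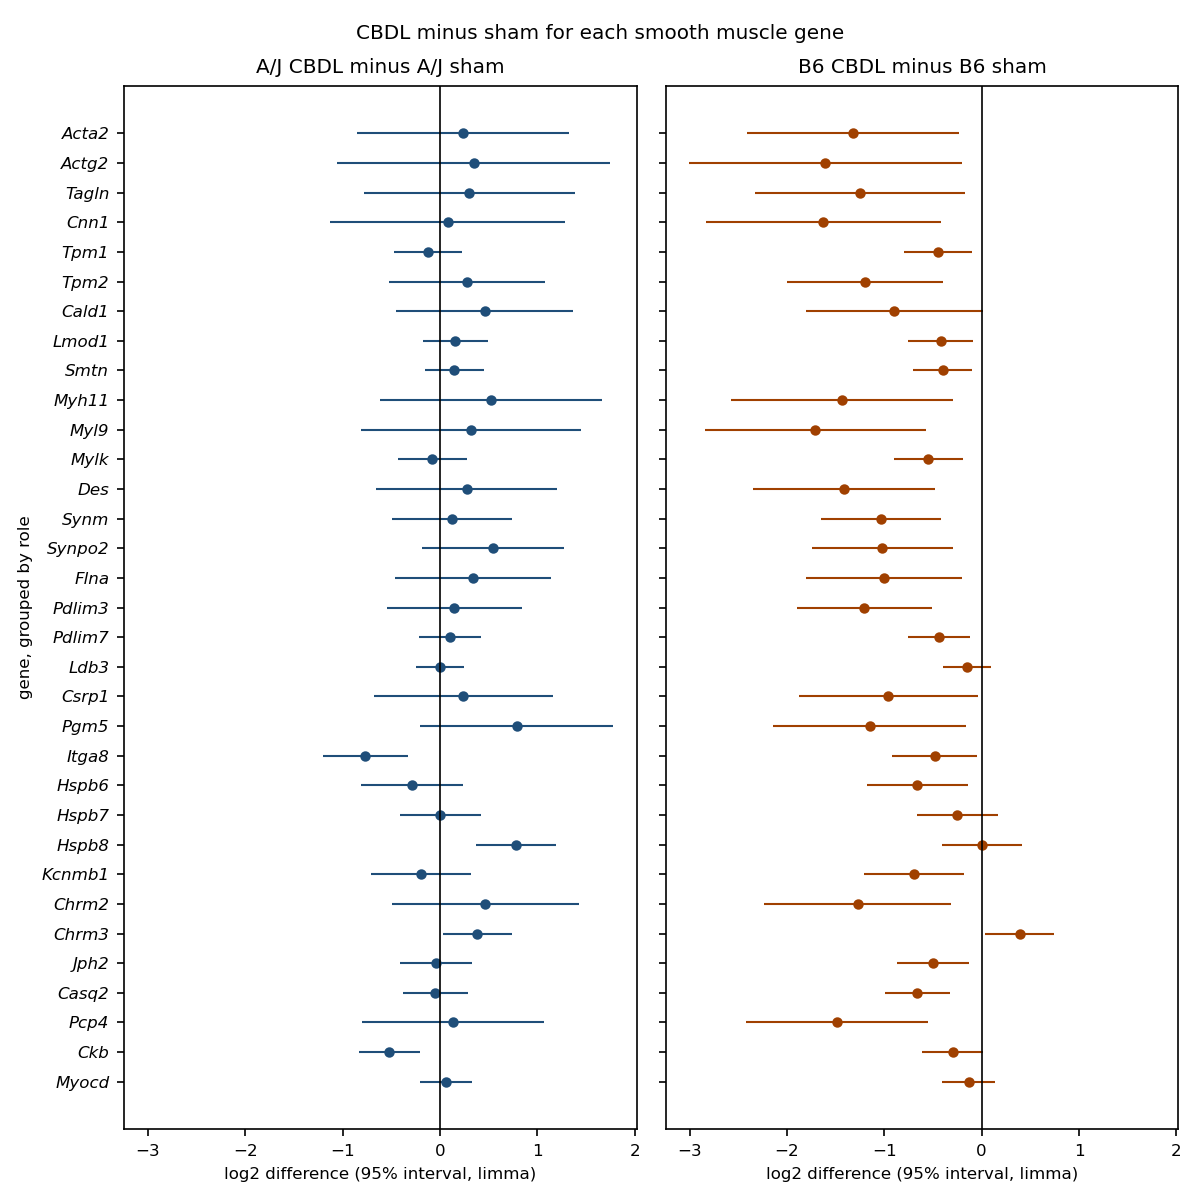
Log2 difference between CBDL and sham for each of the 33 smooth muscle genes in A/J (left) and B6 (right), with the 95% confidence interval from limma. Points are the estimates from 3 arrays a group and the black line marks no difference. In B6 most intervals lie left of the line, with Myl9 lowest at -1.71, and in A/J most intervals cross it.

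The thin filament genes encode the actins and the proteins that coat them. Acta2, vascular smooth muscle actin, which visceral muscle makes too, was 9.999, 10.72 and 10.39 in B6 sham and 8.83, 8.84 and 9.48 in B6 CBDL. The highest B6 CBDL array was lower than the lowest B6 sham array, and the difference was -1.32 (SE 0.50, adjusted p = 0.518). Actg2, the actin isoform typical of gut muscle, was 8.50, 9.11 and 8.60 in B6 sham and 6.62, 6.89 and 7.88 in B6 CBDL. Its groups did not overlap either, with a difference of -1.60 (SE 0.64, adjusted p = 0.564), a 3.04-fold lower mean. Cnn1, the actin-binding calponin of contractile cells, was 7.42, 8.17 and 7.67 in B6 sham and 5.84, 6.04 and 6.49 in B6 CBDL. All 3 ligated arrays were well below the sham arrays, by 1.63 on average (SE 0.55, adjusted p = 0.438).

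Of the other thin filament genes, Tagln (transgelin) differed by -1.25, Tpm2 by -1.20 and Tpm1 by -0.45, the last pair being tropomyosins that lie along the actin filament. Cald1, caldesmon, differed by -0.90. Smtn (smoothelin) differed by -0.40 and Lmod1, the leiomodin that starts new actin filaments, by -0.42. Altogether 8 of the 9 genes of this role had an unadjusted p under 0.05 in B6, beside 7.64% of all probe sets. All 9 were lower without overlap, beside 7.62%, with a median of -1.20. Cald1 had an unadjusted p of 0.053. None of the 9 passed the adjusted threshold.

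The myosin genes were lower by the widest margin. Myh11, the smooth muscle myosin heavy chain, was 9.20, 10.04 and 9.52 in B6 sham and 7.83, 7.94 and 8.69 in B6 CBDL. Its arrays did not overlap, and the difference was -1.43 (SE 0.52, adjusted p = 0.491). Myl9, the regulatory light chain whose phosphorylation starts contraction, was 9.21, 9.87 and 9.25 in B6 sham and 7.38, 7.57 and 8.27 in B6 CBDL. This was the lowest estimate of the 33, at -1.71 (SE 0.51, adjusted p = 0.358) or 3.26-fold. Mylk, the kinase that phosphorylates that light chain, was 8.40, 8.51 and 8.46 in B6 sham and 7.73, 8.08 and 7.93 in B6 CBDL, without overlap. Its difference was smaller, at -0.55, with a smaller error (SE 0.16, adjusted p = 0.343).

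Both intermediate filament genes were lower as well. Des, desmin, which links dense bodies into a lattice, was 7.56, 7.83 and 7.75 in B6 sham and 6.07, 6.12 and 6.72 in B6 CBDL, a difference of -1.41 (SE 0.42, adjusted p = 0.355). Synm, its partner synemin, was 6.62, 7.36 and 6.97 in B6 sham and 5.55, 6.07 and 6.22 in B6 CBDL, a difference of -1.04 (SE 0.28, adjusted p = 0.282). Neither gene's arrays overlapped between the groups.

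The genes of dense bodies, crosslinkers and adhesion were lower in B6 CBDL with a median of -0.98. Of the 8, 7 had an unadjusted p under 0.05, beside 7.64% of all probe sets. Pdlim3, an actinin-binding protein of the dense body, was 7.65, 8.22 and 7.92 in B6 sham and 6.17, 6.81 and 7.19 in B6 CBDL. The highest ligated array stayed below the lowest sham array, and the difference was -1.20 (SE 0.32, adjusted p = 0.263). Synpo2, an actin-bundling protein, differed by -1.02, Flna, the crosslinker filamin A, by -1.01, Csrp1, a LIM protein, by -0.96, Pgm5, a protein of adherens junctions, by -1.15 and Pdlim7 by -0.44. These genes did not overlap between the B6 groups. Itga8, the integrin subunit alpha 8, differed by -0.48 with overlap, and Ldb3 by -0.15 (unadjusted p = 0.21) with overlap.

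Among the genes of excitation, calcium and energy, the estimates went both ways. Casq2, which stores calcium in the sarcoplasmic reticulum, was 4.93, 5.21 and 5.11 in B6 sham and 4.17, 4.46 and 4.65 in B6 CBDL. It had the lowest adjusted p of the 33 genes in B6, at 0.188, with a difference of -0.66 (SE 0.15), but its mean signal was below the median probe set's. Pcp4, which binds calmodulin, was 6.79, 7.95 and 7.40 in B6 sham and 5.47, 5.79 and 6.43 in B6 CBDL, without overlap. The difference was -1.48 (SE 0.42, adjusted p = 0.319).

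The muscarinic receptors, through which acetylcholine from enteric nerves drives contraction, differed in sign. Chrm2 was 6.56, 7.13 and 7.14 in B6 sham and 5.26, 5.34 and 6.42 in B6 CBDL, a difference of -1.27 (SE 0.44, adjusted p = 0.452). Chrm3 was 6.13, 6.06 and 6.21 in B6 sham and 6.38, 6.93 and 6.27 in B6 CBDL, a difference of 0.39 (SE 0.16, adjusted p = 0.589). Chrm3 was the only 1 of the 33 genes for which every B6 CBDL array was above every B6 sham array, beside 7.89% of all probe sets. Kcnmb1, the beta subunit of the calcium-activated potassium channel, differed by -0.69 and Jph2, a junctophilin that ties the reticulum to the cell membrane, by -0.50, both without overlap. Ckb, the brain-type creatine kinase that many tissues express, differed by -0.30 (unadjusted p = 0.059) without overlap.

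The small heat shock proteins were uneven. Hspb6 differed by -0.66 without overlap between the B6 groups. Hspb7 differed by -0.25 with overlap. Hspb8 was 5.94, 6.57 and 6.12 in B6 sham and 6.04, 6.19 and 6.40 in B6 CBDL, so that the B6 CBDL range lay inside the B6 sham range. Myocd, the coactivator myocardin itself, was dim and differed by -0.13 (SE 0.12, adjusted p = 0.909).

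**Figure D3:**
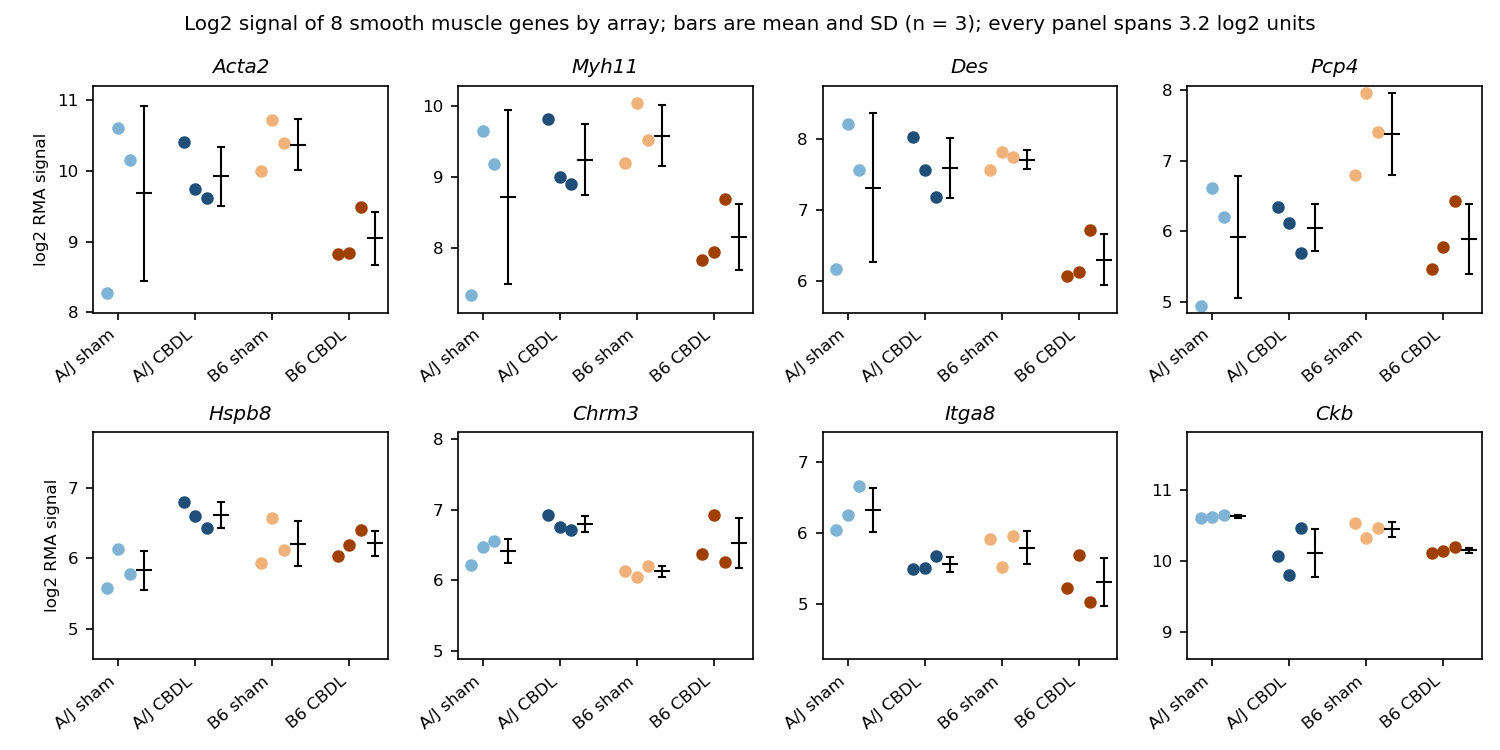
Log2 signal of 8 of the 33 smooth muscle genes by array, with 3 points for each of the 4 groups and, beside them, the mean and SD (n = 3). Acta2, Myh11, Des and Pcp4 are low in all 3 B6 CBDL arrays and on 1 A/J sham array, while Hspb8, Chrm3, Itga8 and Ckb follow other patterns.

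In A/J mice the same comparison gave no common direction. By limma, 0 of the 33 genes were called at an adjusted p under 0.05, beside 0.818% of all probe sets, and 4 had an unadjusted p under 0.05, beside 14.2% of all probe sets. The median log2 difference between A/J CBDL and A/J sham was 0.15, and 24 estimates were above 0, beside 47.6% of all probe sets. The groups did not overlap for 2 genes higher and 2 lower, beside 8.04% and 9.07% of all probe sets. Without A/J sham 1 the median turned to -0.18, with 2 genes higher and 6 lower without overlap, beside 13.9% and 15.9% of all probe sets in that setting, so that neither count stood clear of the background. The 95% intervals with all arrays were wide, from -0.85 to 1.33 for Acta2 and from -0.62 to 1.67 for Myh11. Without A/J sham 1 the standard error of Acta2 was 0.30, against 0.50 with it.

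The 4 genes at the unadjusted threshold in A/J, no larger a share than the 14.2% of all probe sets, were Hspb8, Itga8, Ckb and Chrm3. After each group's mean was subtracted, Hspb8 correlated with the mean of the other 32 genes at 0.86. The value was -0.02 for Itga8, -0.13 for Ckb and 0.24 for Chrm3. Hspb8, a chaperone of the actin cytoskeleton, was 5.58, 6.13 and 5.78 in A/J sham and 6.80, 6.61 and 6.43 in A/J CBDL. All ligated arrays were higher, by 0.78 on average (SE 0.19, adjusted p = 0.0917). Itga8 was 6.05, 6.26 and 6.67 in A/J sham and 5.49, 5.51 and 5.68 in A/J CBDL. All ligated arrays were lower, by 0.76 on average (SE 0.20, adjusted p = 0.113). Ckb was 10.61, 10.63 and 10.65 in A/J sham and 10.06, 9.80 and 10.47 in A/J CBDL, a difference of -0.52 (SE 0.14, adjusted p = 0.132). Chrm3 was 6.22, 6.47 and 6.56 in A/J sham and 6.92, 6.75 and 6.72 in A/J CBDL, a difference of 0.38 (SE 0.16, adjusted p = 0.310).

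Without A/J sham 1 the difference was 0.66 for Hspb8, -0.90 for Itga8, -0.53 for Ckb and 0.29 for Chrm3. With only the probe sets of exactly 1 name in the adjustment, Hspb8 (adjusted p = 0.0313) and Itga8 (adjusted p = 0.0437) passed. The paper lists Hspb8 among its significant genes, as raised by CBDL in A/J, whereas it was not called here over all probe sets.

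Averaged over both strains, CBDL minus sham gave a median of -0.36 over the 33 genes, and -0.58 without A/J sham 1. By limma 0 genes were called, beside 1.74% of all probe sets, and 13 had an unadjusted p under 0.05, 11 of them lower and 2 higher, beside 6.15% and 7.91% of all probe sets. Itga8 had the lowest adjusted p, 0.0528, with a difference of -0.62 (SE 0.14), followed by Ckb at 0.0783 and -0.41 (SE 0.10). Chrm3 at 0.39 (adjusted p = 0.137) and Hspb8 at 0.39 (adjusted p = 0.204) were the 2 higher genes. Without A/J sham 1, Itga8 (adjusted p = 0.0381) and Mylk (adjusted p = 0.0285) passed and 24 genes had an unadjusted p under 0.05. That number was 6 without A/J sham 2, 7 without A/J sham 3, 7 without B6 CBDL 1, 8 without A/J CBDL 2 and 8 without B6 sham 2. It was 23 with array weights and 0 with the hepatocyte mean as a covariate. That covariate widened the standard errors by a median of 3.08 times, so the 0 does not show that the difference was absent.

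Between the strains, sham mice and ligated mice were compared separately. Each of these comparisons shares its arrays with those above, so they are not independent of them. In sham mice, 0 of the 33 genes were called by limma, beside 1.87% of all probe sets, and 5 had an unadjusted p under 0.05, beside 15.4%. The median of A/J sham minus B6 sham was -0.43, and -0.07 without A/J sham 1. The groups did not overlap for 3 genes higher in A/J and 3 lower, beside 9.15% and 9.53% of all probe sets. None of these counts stood clear of the background, and the single genes below are given as descriptions. The number at the unadjusted threshold was 20 without A/J sham 2, 3 without A/J sham 1 and 2 without B6 sham 2.

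Pcp4 differed most between the sham strains. It was 4.95, 6.61 and 6.20 in A/J sham against the 6.79 to 7.95 of B6 sham, lower in every A/J array by 1.46 on average (SE 0.42, adjusted p = 0.130). Casq2 was 4.29, 4.83 and 4.62 in A/J sham against 4.93 to 5.21 in B6 sham, also without overlap, a difference of -0.51 (SE 0.15, adjusted p = 0.144). The A/J sham arrays exceeded B6 sham in Itga8 by 0.53 (SE 0.20, adjusted p = 0.231). Mylk was lower in A/J sham without overlap, and Chrm3 and Ckb were higher without overlap.

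In ligated mice the smooth muscle genes were higher in A/J than in B6. The median difference was 0.60, and the groups did not overlap for 21 genes, all of them higher in A/J, beside 10.4% of all probe sets. By limma 0 genes were called, beside 1.78% of all probe sets, and 13 had an unadjusted p under 0.05, all higher in A/J, beside 5.72%. Pdlim7, a scaffold on actin filaments, was 6.38, 6.45 and 6.27 in A/J CBDL and 5.70, 5.84 and 5.75 in B6 CBDL. Its arrays were far apart, by 0.60 (SE 0.14), and it had the lowest adjusted p of the 33, at 0.0684. Lmod1 was 5.88, 6.05 and 6.25 in A/J CBDL and 5.57, 5.43 and 5.60 in B6 CBDL, a difference of 0.53 (SE 0.15, adjusted p = 0.130).

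Des was 8.03, 7.57 and 7.18 in A/J CBDL against the 6.07 to 6.72 of B6 CBDL, a difference of 1.29 (SE 0.42, adjusted p = 0.186). Actg2 was 9.36, 8.49 and 8.10 in A/J CBDL against the 6.62 to 7.88 of B6 CBDL, a difference of 1.52 (SE 0.64, adjusted p = 0.318). In both genes every A/J CBDL array was higher. Pgm5 differed by 1.25 and Myocd by 0.33 (adjusted p = 0.255), both without overlap. Without A/J sham 1, which is in neither group but enters the pooled variance, Des passed (adjusted p = 0.0307) and 22 genes had an unadjusted p under 0.05. That number was 5 without A/J CBDL 1, 7 without A/J CBDL 2, 4 without B6 CBDL 1 and 8 without B6 CBDL 2.

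Whether the difference between CBDL and sham itself differed between the strains was tested as an interaction. The A/J difference minus the B6 difference had a median of 1.16 over the 33 genes, and 0.66 without A/J sham 1. By limma 0 genes were called, beside 0.0366% of all probe sets, and the lowest adjusted p was 0.568, for Synpo2 at 1.57 (SE 0.47). At an unadjusted p under 0.05 there were 19 genes, all with the A/J difference above the B6 difference, beside 3.76% of all probe sets. That number was 12 without B6 sham 2, 4 with array weights and 0 with the hepatocyte mean as a covariate. Standard errors with that covariate were wider by a median of 1.60 times. Myl9 at 2.03, Myh11 at 1.96 and Actg2 at 1.95 had the highest interaction estimates. Chrm3, at -0.01, had nearly the same difference in each strain.

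Averaged over both operations, A/J minus B6 had a median of 0.09 over the 33 genes and 0.28 without A/J sham 1. By limma 0 genes were called, beside 4.63% of all probe sets. At an unadjusted p under 0.05 there were 6 genes, all higher in A/J, namely Pdlim7, Itga8, Hspb7, Myocd, Chrm3 and Lmod1, beside 8.14% of all probe sets. That number was 11 without A/J sham 1, 3 without B6 CBDL 3 and 3 without B6 sham 1. Pdlim7, at 0.33 (adjusted p = 0.0973), had the lowest adjusted p.

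Most of the smooth muscle genes varied together from array to array. After each group's mean was subtracted, the median correlation over the 528 pairs of genes was 0.69 across the 12 arrays, and 60.2% of pairs were above 0.5. Without A/J sham 1 the median was 0.56 and 54.7% of pairs were above 0.5. The spread within a group was also wide, with a median SD of 0.39 for the 33 genes beside 0.17 for all probe sets, and 31 of the 33 genes were above the latter. These correlations describe 12 arrays that share tissue, preparation and signal scale, and the genes are not independent replicates. Correlations between pairs of other probe sets were not computed. The values here and in the next paragraph are therefore not read against a background, and whether they are particular to smooth muscle genes was not tested.

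Against the mean of the other 32 genes, the within-group deviations of 16 genes correlated above 0.9, among them Acta2 at 0.98 and Tagln at 0.98. For 7 genes the value was under 0.5: Ckb at -0.13, Lmod1 at -0.09, Itga8 at -0.02, Hspb7 at 0.09, Myocd at 0.14, Chrm3 at 0.24 and Jph2 at 0.35. Lmod1 was 6.05 on A/J sham 1, where 16 of the 33 genes had their lowest value.

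Expressed relative to the mean of the other 32 genes on the same array, the genes spread in both directions, as values relative to a common mean must. In B6 CBDL minus B6 sham, Chrm3 was higher relative to the others by 1.26, Hspb8 by 0.85, Myocd by 0.71 and Ldb3 by 0.70, whereas Myl9 was lower by 0.91, Cnn1 by 0.83 and Actg2 by 0.80, all without overlap. In A/J CBDL minus A/J sham, Hspb8 was higher by 0.64 and Pgm5 by 0.65, and Itga8 was lower by 0.95, without overlap. Between the sham strains, Pcp4 in A/J was 1.11 below B6 and Itga8 0.94 above it, without overlap. These are descriptions, with no test of the relative value.

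Over all 12 arrays, the 10 genes outside the list whose pattern was most like the mean of the 33 were Dmpk (Pearson r 0.986), Slc25a4 (0.977), Eml1 (0.976), Clmp (0.961), Cav1 (0.956), Marveld1 (0.951), Sgcb (0.939), Popdc2 (0.935), Postn (0.935) and Sparcl1 (0.931). Cav1 and Popdc2 also belong to the second list of smooth muscle genes. Dmpk, a kinase of muscle cells, ranged over 6.98 to 8.38 in A/J sham, 7.84 to 8.45 in A/J CBDL, 8.10 to 8.66 in B6 sham and 7.20 to 7.64 in B6 CBDL. Its B6 CBDL arrays were below all B6 sham and A/J CBDL arrays, and A/J sham spanned most of the range. The 10 genes were picked for their likeness to the 33 on these same arrays, so this pattern follows from the choice.

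A second list held further genes of smooth muscle that are not among the 33, of which 27 were measured. Its mean was 5.93, 6.39 and 6.26 in A/J sham, 6.39, 6.18 and 6.25 in A/J CBDL, 6.22, 6.59 and 6.39 in B6 sham and 5.90, 5.97 and 6.02 in B6 CBDL. The B6 CBDL arrays were again below all others except A/J sham 1. In B6, 17 of the 27 were lower at an unadjusted p under 0.05 and none was higher, beside 3.77% and 3.88% of all probe sets. The median was -0.42. Pln, phospholamban, which restrains the calcium pump of the reticulum, differed by -1.55 (adjusted p = 0.177) and Sgcd, a sarcoglycan of the muscle membrane, by -0.69 (adjusted p = 0.187). In A/J CBDL minus B6 CBDL, 16 of the 27 were higher without overlap, beside 10.4% of all probe sets. Palld, the actin scaffold palladin, was the only 1 of the 27 called, in CBDL minus sham averaged over both strains, where it fell by 0.44 (adjusted p = 0.0356).

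**Figure D4:**
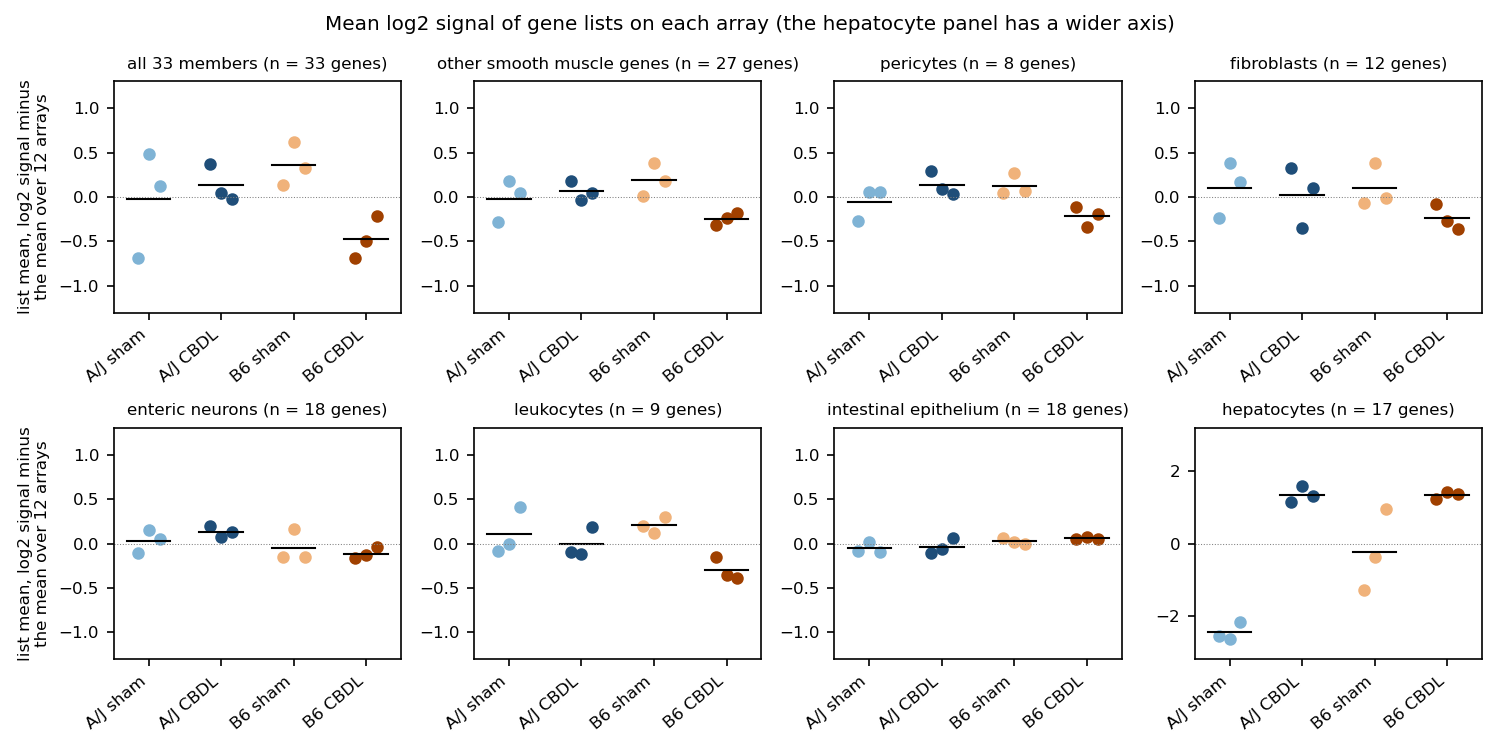
Mean log2 signal of 8 gene lists on each array, as the difference from that list's mean over the 12 arrays, with 3 points a group and a bar at the group mean (the hepatocyte panel has a wider axis). The 33 smooth muscle genes, the other smooth muscle genes and the pericyte genes have B6 CBDL below B6 sham and A/J CBDL, epithelium is level, and hepatocyte genes are lowest in A/J sham.

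Lists of markers of other cells of the gut wall were read beside these results. Epithelial genes were level as a set, with a median of -0.03 in B6. Of the 18, 0 were lower and 2 higher in B6 CBDL at an unadjusted p under 0.05, beside 3.77% and 3.88% of all probe sets. Single genes went both ways. In B6, 4 were higher and 5 lower without overlap, beside 7.89% and 7.62% of all probe sets. In A/J, 3 were higher and 3 lower at an unadjusted p under 0.05, beside 14.2% of all probe sets in either direction. Of those 18 only Tspan8 was called in any comparison, higher in CBDL by 0.42 averaged over both strains (adjusted p = 0.0146). Tspan8 was also called in A/J minus B6 averaged over both operations, at -0.33 (adjusted p = 0.0201). With the epithelial mean of each array subtracted, the mean of the 33 genes lay 0.53 below its mean over the 12 arrays in B6 CBDL and 0.33 above it in B6 sham, close to the 0.47 below and 0.36 above without that step.

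Other cells of the wall went partly the same way. Of 8 pericyte genes, 3 were lower in B6 CBDL at an unadjusted p under 0.05, beside 3.77% of all probe sets. Rgs5, which is also made by smooth muscle, was at -1.49 (adjusted p = 0.186) and Abcc9 at -0.68. Of 12 fibroblast genes 2 were lower at that threshold, and all 12 estimates were below 0, beside 50.7% of all probe sets. Fbln1, a matrix protein, fell with CBDL by 0.66 averaged over both strains (adjusted p = 0.00411). Of 4 genes of interstitial cells of Cajal, the pacemaker cells of the muscle layer, 1 was lower, and Kit was called between the strains, higher in A/J by 0.39 averaged over both operations (adjusted p = 0.0256).

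The 18 enteric neuron genes had a list mean between 4.85 and 5.22, and 0 of them had an unadjusted p under 0.05 in B6. Syt1 was called between the strains, higher in A/J by 0.39 (adjusted p = 0.0440). Of the 6 glial and 5 mesothelial genes, 0 had an unadjusted p under 0.05 in B6, with Gfap at -0.15, Cdh19 at -0.12, Msln at -0.39 and Upk3b at -0.52. Of 13 endothelial genes 2 were higher in B6 CBDL at that threshold, beside 3.88% of all probe sets. Between the sham strains Tek was higher in A/J by 1.07 (adjusted p = 0.00582) and Tie1 by 0.50 (adjusted p = 0.0148), both receptors of endothelium, and Lyve1 rose with CBDL by 0.36 averaged over both strains (adjusted p = 0.0493).

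Leukocyte genes were also lower in B6 CBDL. Of 9, 8 were lower at an unadjusted p under 0.05 and 8 without overlap, beside 3.77% and 7.62% of all probe sets, with a median of -0.54. Their list mean was 7.74, 7.65 and 7.83 in B6 sham and 7.38, 7.18 and 7.14 in B6 CBDL. On A/J sham 1 that mean was 7.45, within the range of the A/J arrays. Cd3e, of T cells, was higher in A/J CBDL than in B6 CBDL by 0.59 (adjusted p = 0.0274). The part of any of these cells in the result for smooth muscle genes was not tested.

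Markers of tissues outside the gut wall were read as well. The list of 18 striated muscle genes had a mean of 4.92 to 5.29, under the array medians, with Actc1, the cardiac actin, higher in A/J than in B6 by 1.00 averaged over both operations (adjusted p = 0.000162), and Tnnt2, the cardiac troponin T, by 0.53 in CBDL mice (adjusted p = 0.0433). The 9 genes of exocrine pancreas had a mean of 4.82 to 5.10, with Cela3b at 0.26 and Cpa1 at -0.31 in B6 CBDL minus B6 sham. The mean of 17 hepatocyte genes was 4.79 to 5.26 in A/J sham, 8.59 to 9.03 in A/J CBDL, 6.14, 7.07 and 8.40 in B6 sham and 8.66 to 8.86 in B6 CBDL. Fgg, a fibrinogen chain, rose in A/J by 5.28, Hpx by 5.23, Bhmt by 3.97 and Tat by 3.64 (adjusted p from 0.00102 to 0.00453). With that mean as a covariate, the median of the 33 genes in B6 was -0.96 and 7 had an unadjusted p under 0.05, where the standard errors were wider by a median of 1.58 times.

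The 10 genes that regulate smooth muscle transcription differed little. In B6 CBDL, 2 were lower and 1 higher at an unadjusted p under 0.05, beside 3.77% and 3.88% of all probe sets. In A/J all 10 estimates were above 0, beside 47.6% of all probe sets, with a median of 0.18. Of these, 1 had an unadjusted p under 0.05, beside 14.2% of all probe sets. Their mean was 7.23, 7.41 and 7.37 in A/J sham, lowest on A/J sham 1, and 7.47, 7.57 and 7.45 in A/J CBDL. Tead1 differed by -0.37 (adjusted p = 0.635) and Fhl2 by 0.40 (adjusted p = 0.560) in B6, and in A/J CBDL minus B6 CBDL Tead1 was higher by 0.59 (adjusted p = 0.123).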

How the data were processed

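The deposited table holds log2 signals which, per the labels, the authors made by RMA with the Affymetrix Expression Console. Versions are not given in the sources used. The methods of the paper name another summary, GCRMA, and another array, although its list of changed genes gives Hspb8 by the probe set used here. The values were used as deposited.

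The platform table names 1 gene for 21789 of the 35556 probe sets, several for 1621 and none for 12146, giving 19938 genes. The 33 genes, the 14 other lists (174 of 182 genes found) and the tests were chosen with earlier results of these data known.

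All 12 arrays entered a limma model (version 3.58.1, R 4.3.3) with a mean for each group, moderated variances and Benjamini-Hochberg adjustment over all probe sets. A gene was called at an adjusted p under 0.05. The model was tested on simulated data. Groups did not overlap where all 3 arrays of one lay beyond all 3 of the other. The text names all 33 genes, the called genes of the other lists (at most 4 a list, by adjusted p, or the 2 with the lowest unadjusted p), and the 10 genes most like the mean of the 33. Pln and Sgcd were picked after their values were seen. Promoters came from RefSeq. Alternatives were other normalizations, array weights, filters, a replicate block, covariates and each array left out. The 3 arrays per group limit the precision.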

Additional observations from a re-analysis of the deposited data

How the results depend on the processing

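None of the 33 genes was called in the main model, so there was no called value whose sign could reverse. Genes called in some other setting kept the sign of that difference in every setting. The B6 median stayed below 0 in every setting. The A/J median changed sign without A/J sham 1, and it also fell below 0 among the other settings, to -0.20 at its lowest. With array weights, in which A/J sham 1 counted 0.382 of an average array, the median of A/J sham minus B6 sham was 0.049 and that of the interaction 0.55. The count of genes called, 0 in each comparison with all arrays, moved as follows. In A/J CBDL minus A/J sham it was 2 with only single-name probe sets. In A/J CBDL minus B6 CBDL it was 2 with array weights (Lmod1 and Pdlim7) and 1 (Pdlim7) with the epithelial mean subtracted, with single-name probe sets, with only the arrays compared, and with the replicate block. In CBDL minus sham averaged over both strains it was 5 with array weights, 2 with the epithelial mean subtracted, with quantile-normalized values and with single-name probe sets, and 1 with the dimmest 30% of probe sets removed. In A/J minus B6 averaged over both operations it was 2 with array weights and 1 with the epithelial mean subtracted. With the hepatocyte mean as a covariate, chosen after seeing the data, 0 genes in A/J and 7 in B6 had an unadjusted p under 0.05, 0 in A/J sham minus B6 sham, 12 in A/J CBDL minus B6 CBDL, 0 in the interaction, 0 in CBDL minus sham averaged over both strains and 1 in A/J minus B6 averaged over both operations, and standard errors in A/J were wider by a median of 3.08 times.

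With each array left out in turn, the calls ranged from 0 to 1 in A/J CBDL minus A/J sham (Ckb, without A/J CBDL 3), 0 to 1 in A/J CBDL minus B6 CBDL (Des without A/J sham 1, Pdlim7 without B6 sham 2), 0 to 2 in CBDL minus sham averaged over both strains and 0 to 1 in A/J minus B6 averaged over both operations (Chrm3 without B6 CBDL 2, Pdlim7 without B6 sham 2). The A/J median ranged from -0.18 to 0.41, the sham strain median from -0.71 to -0.07, the ligated strain median from 0.48 to 0.65, the interaction median from 0.66 to 1.39, the CBDL median over both strains from -0.58 to -0.25 and the strain median over both operations from -0.05 to 0.28. Genes at an unadjusted p under 0.05 ranged from 3 to 6 in A/J and from 13 to 28 in B6. For the alternative settings, here and above, the share of all probe sets at that threshold is not given. Those counts are therefore not read against a background. The median within-group correlation between genes was 0.56 without A/J sham 1, an alternative chosen after seeing the data.

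Same-numbered arrays of different groups deviated from their group means with correlations from -0.31 to 0.36 over 18 pairs. For arrays of other numbers the correlations ran from -0.36 to 0.26. The check showed no clear pairing by number, but with 3 arrays per group it cannot exclude one. The replicate block changed no other call among the 33 genes. The deposited values carry no background measure, so how far dim genes such as Casq2 and Myocd lie above background is unknown.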
